A study of Mus musculus with 192 samples.

Results

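The 9 genes described here are grouped under haem breakdown (Hmox1, Blvra, Blvrb), iron storage (Fth1, Ftl1), iron export and its control (Slc40a1, Hamp) or iron transport (Trf, Slc11a2). They were taken by gene symbol from a table of 54752 genes, a rule that used no measured value, although the names were chosen with earlier results of these data known. RNA-seq had been made from 9 tissues of male C57BL/6 mice (C57BL/6J in the methods), whose labels give an age of 12 weeks, which was their age around launch: liver (Liv), spleen (Spl), kidney (Kid), thymus (Thy), cerebrum (Cbr), epididymal white fat (eWAT), interscapular brown fat (iBAT), temporal bone (TpB) and mandible (MdB). Ground control wild-type mice (GC_WT) and ground control Nrf2KO mice (GC_KO) were compared with flown wild-type (FL_WT) and flown Nrf2KO (FL_KO) mice, all housed singly in the same kind of cage unit. The Nrf2KO mice carry the germline Nfe2l2 tm1Ymk allele, so every cell type lacks Nrf2, and they had been screened for the absence of an intrahepatic shunt. Flown mice lived on the International Space Station for about a month and were dissected in the United States after their return. The ground mice were kept and dissected later in Japan, so flight cannot be told apart from site and date. Both went through behavioural tests and tail blood sampling before dissection. The methods describe a change to flight food before launch and name CRF-1 feed for the ground mice, so feed may differ as well. There were 6 mice in each group, and 3 in Kid and MdB. Flown Nrf2KO mouse 04, which had bled into the intestine, was left out, which leaves 5 FL_KO mice, 2 of them in MdB, and 184 samples in all.

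Haem oxygenase 1, made from Hmox1, opens the haem ring and frees its iron, and biliverdin reductase A (Blvra) turns the biliverdin that forms into bilirubin. Blvrb encodes biliverdin reductase B, a second enzyme of that name. Freed iron is stored in ferritin, a shell of heavy chains (Fth1), which oxidize the iron, and light chains (Ftl1), which help it to form a mineral core. Ferroportin (Slc40a1) carries iron out of cells, and hepcidin (Hamp), a hormone of the liver, makes cells degrade ferroportin. Transferrin (Trf) carries iron in plasma, and DMT1 (Slc11a2) moves ferrous iron across the gut surface and out of endosomes. Macrophages of the splenic red pulp and of the liver recycle the iron of old red cells along this route. Nrf2 is a transcription factor that activates genes of defence against oxidants, among them Hmox1, the ferritin genes, Blvrb and Slc40a1. Hmox1, Fth1 and Ftl1 are in the study's own list of typical Nrf2 targets.

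Several of these mRNAs are also controlled after transcription, through the iron-responsive element, a short hairpin that is bound by the iron regulatory proteins when iron is scarce. An element in the 5′ UTR then blocks translation, and elements in the 3′ UTR protect the mRNA from decay, so the mRNA level alone does not give the protein level of ferritin or ferroportin. The sequences are shown because they are elements of this kind in mRNAs measured below, at the 3′ end in Tfrc, the transferrin receptor, and at the 5′ end in Fth1, Ftl1 and Slc40a1. They were read from GENCODE vM21 transcripts (GRCm38) in DNA letters, 5′ to 3′ on the sense strand, with the bulged C and the loop in capitals.
Fth1 5′ UTR: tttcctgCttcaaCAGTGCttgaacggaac
Ftl1 5′ UTR: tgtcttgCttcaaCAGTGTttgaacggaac
Slc40a1 5′ UTR: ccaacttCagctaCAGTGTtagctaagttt
Tfrc 3′ UTR: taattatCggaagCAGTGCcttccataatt
Tfrc 3′ UTR: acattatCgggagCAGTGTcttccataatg
Tfrc 3′ UTR: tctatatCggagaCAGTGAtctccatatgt
Tfrc 3′ UTR: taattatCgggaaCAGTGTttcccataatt

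Each stretch of 30 bases starts at transcript base 9 in Fth1, 77 in Ftl1 and 89 in Slc40a1, and at bases 3314, 3693, 3758 and 3805 in Tfrc. The pattern searched on the sense strand of the transcripts was a C, 5 bases, CAGTGN and 5 bases that pair with the first 5, G-T pairs allowed. Of 21901 protein-coding genes, 31 (0.14%) held a match in the 5′ UTR and 129 (0.59%) in the 3′ UTR. Hmox1, Blvra, Blvrb, Hamp, Trf and Slc11a2 had no match to these letters, although Slc11a2 is known to have transcript forms with an element in the 3′ UTR. A match is a description of the sequence and not a measurement of binding. On GRCm38 the members lie as follows: Hmox1 (ENSMUSG00000005413.8) at chr8:75093621-75100589 on the plus strand, Blvra (ENSMUSG00000001999.15) at chr2:127070665-127097084 on the plus strand, Blvrb (ENSMUSG00000040466.16) at chr7:27447978-27466144 on the plus strand, Fth1 (ENSMUSG00000024661.6) at chr19:9980598-9985098 on the plus strand, Ftl1 (ENSMUSG00000050708.16) at chr7:45457944-45459884 on the minus strand, Slc40a1 (ENSMUSG00000025993.10) at chr1:45908068-45926523 on the minus strand, Hamp (ENSMUSG00000050440.8) at chr7:30942368-30944032 on the minus strand, Trf (ENSMUSG00000032554.15) at chr9:103204001-103230444 on the minus strand and Slc11a2 (ENSMUSG00000023030.16) at chr15:100387898-100425072 on the minus strand. Ftl1 overlaps Gm22133 and Trf overlaps Gm20425 on the same strand, and Ftl1, Hamp and Slc11a2 overlap Gm10252, Gm44662 and Gm5475 on the opposite strand. The strand setting of the counting is not given in the sources used here, so reads of such partners may be shared.

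Libraries held 12954949 to 16308175 expected counts outside Thy and 8007523 to 10564704 in Thy, where the RNA was depleted of rRNA rather than poly(A)-selected. Nfe2l2, the targeted gene, was called lower in Nrf2KO mice in all 9 tissues in both conditions, from -1.81 in Cbr to -0.25 in Spl on the log2 scale on the ground. In iBAT the summed level of 10 skeletal muscle markers was 8139 TPM in FL_WT replicate 6, 3829 TPM in FL_WT replicate 8 and 9972 TPM in FL_KO replicate 11, and flight calls there are given with and without these libraries. In TpB the same markers summed to 8702 to 23810 TPM in GC_WT and 3768 to 17270 in FL_WT. In Nrf2KO mice they summed there to 15.8 to 31120 TPM in GC_KO and 3186 to 24950 in FL_KO. In MdB the sums were 501 to 829 TPM in GC_WT and 104 to 337 in FL_WT. They were 460 to 1131 TPM in GC_KO and 118 to 663 in FL_KO. Member values in the bones therefore stand beside uneven muscle content. In eWAT the 6 hepatocyte markers were carried by Cyp2e1, which fat cells express too, at 5067 to 10479 TPM in GC_WT, 1245 to 3659.8 in FL_WT, 3841 to 7073 in GC_KO and 1803 to 3225 in FL_KO. The other 5 (Alb, Ttr, Apoa1, Tat, Cps1) summed there to 13.4 to 368, 16.8 to 689, 15.6 to 849 and 17.9 to 138 TPM in the same order, against 57171 to 77758 TPM in Liv of GC_WT mice. The library numbers in the labels place TpB in 2 sets that differ for several members. The defining markers of each tissue were detected in all 9. In bulk RNA, fewer cells of a type and less RNA per cell cannot be told apart.

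The test was edgeR's quasi-likelihood test on the expected counts of all 4 groups of a tissue, with p-values adjusted over all genes tested in that tissue (13433 in Liv to 18184 in TpB) and a gene called below 0.05. TPM, a level per transcript length scaled to the same total in every library, is given for levels and can be set side by side between genes, while log2 fold changes are on the TMM scale, in which the median gene moves by about 0. Median TPM differences of all genes reached 0.31 and 0.43 (log2) with flight in iBAT, 0.18 and 0.16 in Thy and 0.19 and 0.10 in TpB, in WT and Nrf2KO mice respectively, so a fold change in those tissues is relative to such a shift. Of the 81 pairs of a member and a tissue, 75 passed the filter on low counts. Hamp passed in 3 tissues (Liv, MdB and eWAT), and the other 8 members passed in all 9.

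With flight, 7 of the 75 pairs were called higher and 1 lower in WT mice, and 6 were called higher and 1 lower in Nrf2KO mice. All of these calls were in Liv, Thy, eWAT and iBAT. Without Nrf2 the calls went one way: 7 pairs were lower and 0 higher on the ground, and 8 were lower and 0 higher in flight. At an unadjusted p under 0.05 there were 20, 19, 24 and 23 pairs in the 4 comparisons, in that order. Of all genes tested, those under it ran from 548 of 16382 in Cbr to 5816 of 16307 in Thy with flight in WT mice. In Nrf2KO mice they ran from 486 of 18184 in TpB to 7630 of 16307 in Thy. Between genotypes they ran from 528 of 18184 in TpB to 3073 of 16307 in Thy on the ground. In flight they ran from 418 of 18184 in TpB to 3233 of 16307 in Thy. The comparisons FL_WT against GC_WT and GC_KO against GC_WT share the GC_WT mice, and each other pair of comparisons with a common group shares its mice likewise, so each is read by its own values. For FL_WT against GC_WT, the share of all genes tested that was called was 0% in TpB, 0% in MdB, 2.26% in Spl, 3.45% in Liv, 13.4% in eWAT, 19.2% in iBAT, 22.8% in Thy, 0.119% in Kid and 0.0244% in Cbr. The corresponding shares for FL_KO against GC_KO were 0% in TpB, 0% in MdB, 0.668% in Spl, 3.34% in Liv, 7.71% in eWAT, 33.5% in iBAT, 38.2% in Thy, 0.159% in Kid and 0.0061% in Cbr. For GC_KO against GC_WT they were 0.198% in TpB, 0.244% in MdB, 1.13% in Spl, 2.64% in Liv, 2.74% in eWAT, 2.14% in iBAT, 3.81% in Thy, 1.61% in Kid and 0.836% in Cbr. For FL_KO against FL_WT they were 0.203% in TpB, 0.208% in MdB, 1.16% in Spl, 3.65% in Liv, 1.06% in eWAT, 1.5% in iBAT, 2.64% in Thy, 1.83% in Kid and 0.531% in Cbr. In Thy and iBAT the flight calls among the members thus stood on a large background, 4 of 8 members against 22.8% of genes in Thy of WT mice and 3 of 8 against 33.5% in iBAT of Nrf2KO mice. In the genotype comparisons the background was a few percent of genes or less. In the log2 fold changes of the 75 pairs, 57 were below 0 in each genotype comparison, with medians of -0.16 on the ground and -0.17 in flight.

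**Figure D1:**
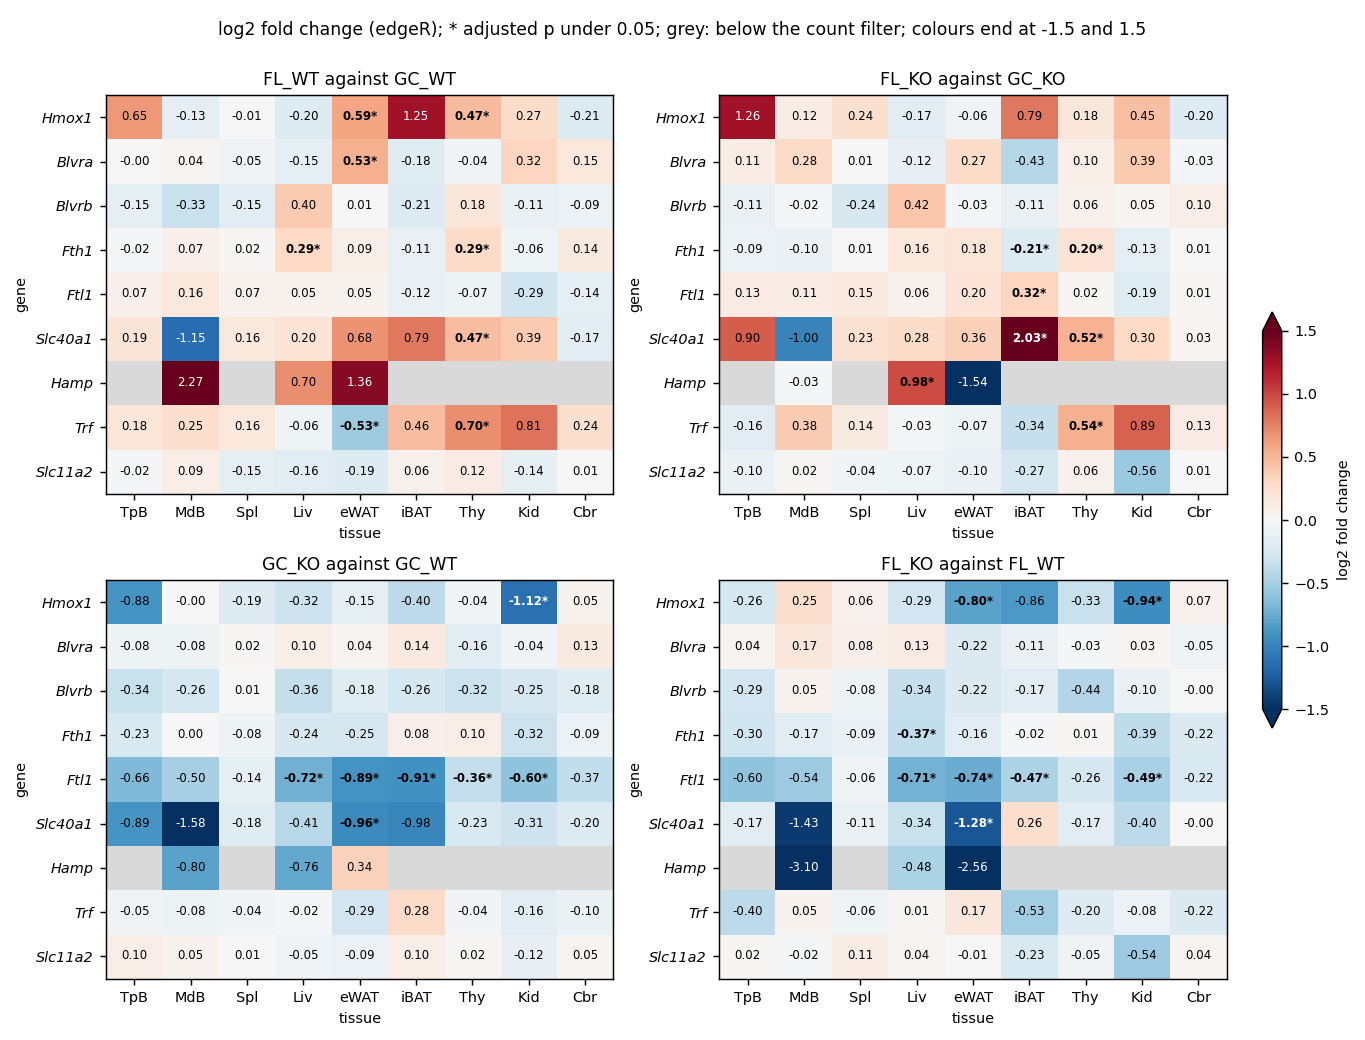
Log2 fold changes (edgeR, TMM scale) of the 9 members (vertical) in the 9 tissues (horizontal), 1 panel for each of the 4 comparisons, with colours that end at -1.5 and 1.5, an asterisk for an adjusted p under 0.05 and grey where a gene did not pass the filter. The Ftl1 line is below 0 in all 9 tissues in both genotype comparisons, and the flight calls sit in Liv, Thy, eWAT and iBAT.

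Each member had its own tissue order in GC_WT mice, given here as mean ± SD TPM (n = 6, and 3 in Kid and MdB). Hmox1 was highest in Spl at 546 ± 109, well apart from Kid at 54.3 ± 9.51, and the ranges of Kid, MdB (49.5 ± 18.2), TpB (39.96 ± 13.5) and eWAT (37.4 ± 3.96) overlapped from one to the next. It was lower in Liv (14.1 ± 3.62), iBAT (7.03 ± 3.74), Cbr (6.69 ± 1.14) and Thy (5.10 ± 0.719), where neighbours also overlapped. Slc40a1, the exporter, led in the same recycling organ, at 207 ± 32.8 in Spl, and its range overlapped that of MdB (115 ± 67.8). Liv followed at 37.3 ± 8.39 and overlapped MdB, and then came TpB (14.6 ± 4.59), Kid (11.8 ± 0.756), Thy (8.06 ± 1.04), eWAT (3.96 ± 0.938), Cbr (3.69 ± 0.499) and iBAT (2.21 ± 0.475). The pairs TpB and Kid, and eWAT and Cbr, overlapped. The 2 biliverdin reductases differed in their leading tissue. Blvra was highest in Kid at 47.4 ± 2.20, without overlap with Spl (37.1 ± 3.67), and lowest in Liv at 7.95 ± 0.52. Between them were eWAT (31.6 ± 8.01), TpB (26.2 ± 4.80), Cbr (21.7 ± 1.55), MdB (14.5 ± 0.383), iBAT (12.6 ± 2.12) and Thy (11.8 ± 1.34). The ranges of Spl, eWAT, TpB and Cbr overlapped in turn, as did those of MdB, iBAT and Thy. Blvrb was highest in TpB (209.9 ± 91.9), Liv (176 ± 24.9) and Spl (149.9 ± 21.9), which overlapped, followed by eWAT (86.2 ± 7.29), MdB (80.8 ± 7.98), iBAT (36.5 ± 2.94), Kid (31.7 ± 1.56), Cbr (18.8 ± 2.40) and Thy (8.89 ± 1.76), of which eWAT and MdB overlapped and the later ones did not. TpB also carried the most red cell transcripts of the bones (11 markers summed to 28960.0 to 108600.0 TPM in its GC_WT mice, against 877 to 1548 in MdB).

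The ferritin chains were among the most abundant of the members. Fth1 was highest in Kid at 7999 ± 323, without overlap with MdB (5265 ± 1112), and then came Cbr (4161 ± 794), eWAT (4076 ± 407), TpB (3557 ± 994), Spl (2431 ± 209), Liv (2187 ± 219) and iBAT (2073 ± 230.0), each overlapping the next. Thy stood apart at 272 ± 20.9, although its libraries were made from another RNA fraction. For Ftl1 the range of Liv (3758 ± 712) overlapped those of MdB (3840.0 ± 153) and Kid (3531 ± 5.69), which did not overlap each other, and Kid came first in CPM and when mitochondrial and ribosomal protein genes were left out of TPM. Below them were eWAT (2925 ± 353), Spl (2446 ± 114), TpB (1431 ± 371), iBAT (639.9 ± 69.2), Thy (561 ± 102) and Cbr (449 ± 78.0). Kid and eWAT did not overlap, eWAT and Spl did, and so did iBAT, Thy and Cbr in turn. The ratio of Ftl1 to Fth1 TPM therefore ran from 0.115 ± 0.0473 in Cbr to 2.07 ± 0.438 in Thy, with 1.72 ± 0.296 in Liv, 1.01 ± 0.133 in Spl and 0.442 ± 0.0175 in Kid. Hamp was a liver transcript, at 2783 ± 593 in Liv and at a mean of at most 4.34 elsewhere, with 0 in all GC_WT mice of Kid and Cbr and with ranges that overlapped from each of these tissues to the next. In eWAT single mice had between 0 and 59.8 TPM of Hamp (0 to 188 counts), and in MdB between 0 and 12.7 TPM (0 to 36 counts). Hamp was called in neither tissue, and the part of the hepatocyte transcripts found in eWAT, given above, in its Hamp values was not tested. Trf was highest in Liv (7363 ± 1271) and eWAT (3020.0 ± 409), far above TpB (356 ± 152), Cbr (214 ± 11.3), Spl (197 ± 12.7), MdB (134 ± 34.9), iBAT (33.0 ± 24.9), Thy (21.4 ± 3.04) and Kid (3.84 ± 0.986). TpB, Cbr and Spl overlapped in turn, and so did iBAT and Thy. Slc11a2 varied least of the members between tissues, from 34.1 ± 4.25 in Kid to 8.02 ± 0.51 in Thy, with MdB (25.3 ± 0.754), TpB (21.7 ± 1.496), Cbr (17.02 ± 1.19), Spl (15.97 ± 1.04), Liv (13.9 ± 0.606), eWAT (13.1 ± 1.69) and iBAT (8.35 ± 2.62) between them. Kid, MdB and TpB stood apart from each other, and from Cbr to Thy each range overlapped the next. The place of Slc11a2 as least variable rests on Thy with its other RNA fraction. With Thy left out, Fth1 (7999 in Kid to 2073 in iBAT) varied less in ratio than Slc11a2 (34.1 to 8.35).

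**Figure D2:**
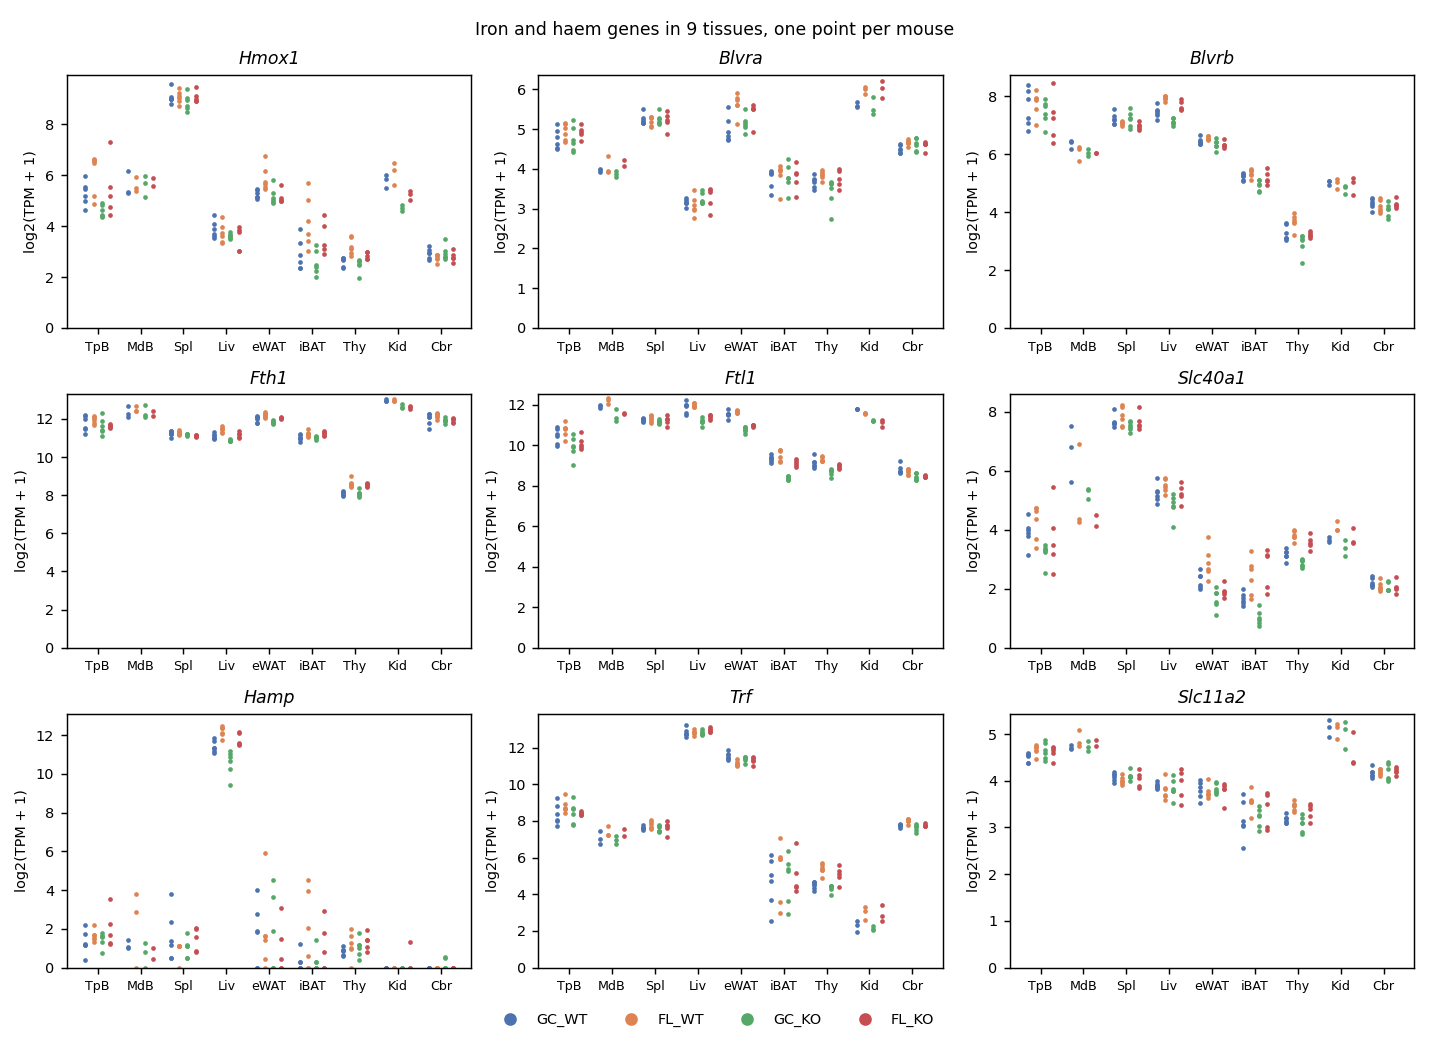
Level of each member as log2(TPM + 1) in every mouse, 1 panel a gene, with the 9 tissues along the horizontal axis and the 4 groups in colour. Hmox1 and Slc40a1 peak in Spl, Hamp is high in Liv alone, and the groups overlap in most tissues.

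Ftl1, the ferritin light chain, was the member that followed the Nrf2 genotype most widely. Its log2 fold change was below 0 in 9 of 9 tissues in both genotype comparisons, at an unadjusted p under 0.05 in 9 tissues on the ground and in 8 in flight. On the ground it was called lower in 5 tissues: -0.91 (SE 0.08, adjusted p = 1.45e-07) in iBAT, -0.89 (SE 0.08, adjusted p = 1.2e-07) in eWAT, -0.72 (SE 0.10, adjusted p = 8.05e-05) in Liv, -0.60 (SE 0.08, adjusted p = 0.000988) in Kid and -0.36 (SE 0.08, adjusted p = 0.0109) in Thy. In flight it was called lower in 4: -0.74 (SE 0.08, adjusted p = 9.17e-06) in eWAT, -0.71 (SE 0.11, adjusted p = 0.000189) in Liv, -0.49 (SE 0.08, adjusted p = 0.00421) in Kid and -0.47 (SE 0.09, adjusted p = 0.00333) in iBAT. The mean TPM of GC_KO mice was 51.7% of that of GC_WT mice in iBAT, 58.8% in eWAT, 61.2% in Liv, 66.6% in Kid and 72.8% in Thy. The values not called on the ground were -0.66 (adjusted p = 0.999) in TpB, -0.50 (adjusted p = 0.189) in MdB, -0.37 (adjusted p = 0.0748) in Cbr and -0.14 (adjusted p = 0.423) in Spl. In flight they were -0.60 (adjusted p = 0.976) in TpB, -0.54 (adjusted p = 0.206) in MdB, -0.26 (adjusted p = 0.083) in Thy, -0.22 (adjusted p = 0.932) in Cbr and -0.06 (adjusted p = 0.846) in Spl. In TpB the ground value was -0.71 in the first library set and -0.58 in the second, and the flight value was -0.82 and -0.42. Spl, which has the highest Hmox1 level, had the Ftl1 change nearest to 0. The call in Thy on the ground was lost when the 2 groups were fitted alone (adjusted p = 0.0513), as were the flight calls in Kid (0.0646) and iBAT (0.0808), and that in iBAT also without the muscle-bearing libraries (0.0636).

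Single mice show how far the genotypes stood apart. In eWAT, Ftl1 ran from 2395 to 3494 TPM in GC_WT (median 2917) and from 3034 to 3396 TPM in FL_WT (median 3222), and from 1475 to 1883 TPM in GC_KO (median 1720.0), with 1911, 2012, 2003, 2021 and 1957 TPM in FL_KO. All 11 Nrf2KO mice were below the lowest WT mouse. In Liv, Ftl1 ran from 2833 to 4795 TPM in GC_WT (median 3918), from 3707 to 4322 TPM in FL_WT (median 3975) and from 1870.4 to 2649 TPM in GC_KO (median 2306), with 2899.8, 2744, 2568, 2817 and 2381 TPM in FL_KO. There, 10 of 11 Nrf2KO mice were below all WT mice, and the exception was 1 FL_KO mouse. In iBAT, Ftl1 ran from 549 to 746 TPM in GC_WT (median 644), from 577 to 875 TPM in FL_WT (median 762) and from 310.2 to 359 TPM in GC_KO (median 325), with 476, 511, 585, 561 and 625 TPM in FL_KO. The GC_KO mice were below all others, and the highest FL_KO mice overlapped FL_WT. In Kid, Ftl1 was 3536, 3525 and 3533 TPM in GC_WT, 3085, 3029 and 2974 TPM in FL_WT, 2399, 2318 and 2339 TPM in GC_KO and 2247, 1896 and 2378 TPM in FL_KO. All 6 Nrf2KO kidneys were below all 6 WT kidneys. In MdB, Ftl1 was 3838, 3689 and 3994 TPM in GC_WT, 4161, 4835 and 5050.5 TPM in FL_WT, 2340.1, 2628 and 3512 TPM in GC_KO and 3094 and 3001 TPM in FL_KO. Here too all 5 Nrf2KO values were below the WT values, without a call at this number of mice. In Thy, Ftl1 ran from 464 to 752 TPM in GC_WT (median 537), from 585 to 696 TPM in FL_WT (median 606) and from 332 to 457 TPM in GC_KO (median 421), with 498, 464, 514, 543 and 454 TPM in FL_KO. The ground genotypes did not overlap in Thy, and 7 of 11 Nrf2KO mice were below every WT mouse. In Cbr 8 of 11, in TpB 6 of 11 and in Spl 2 of 11 Nrf2KO mice were below all WT mice.

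**Figure D3:**
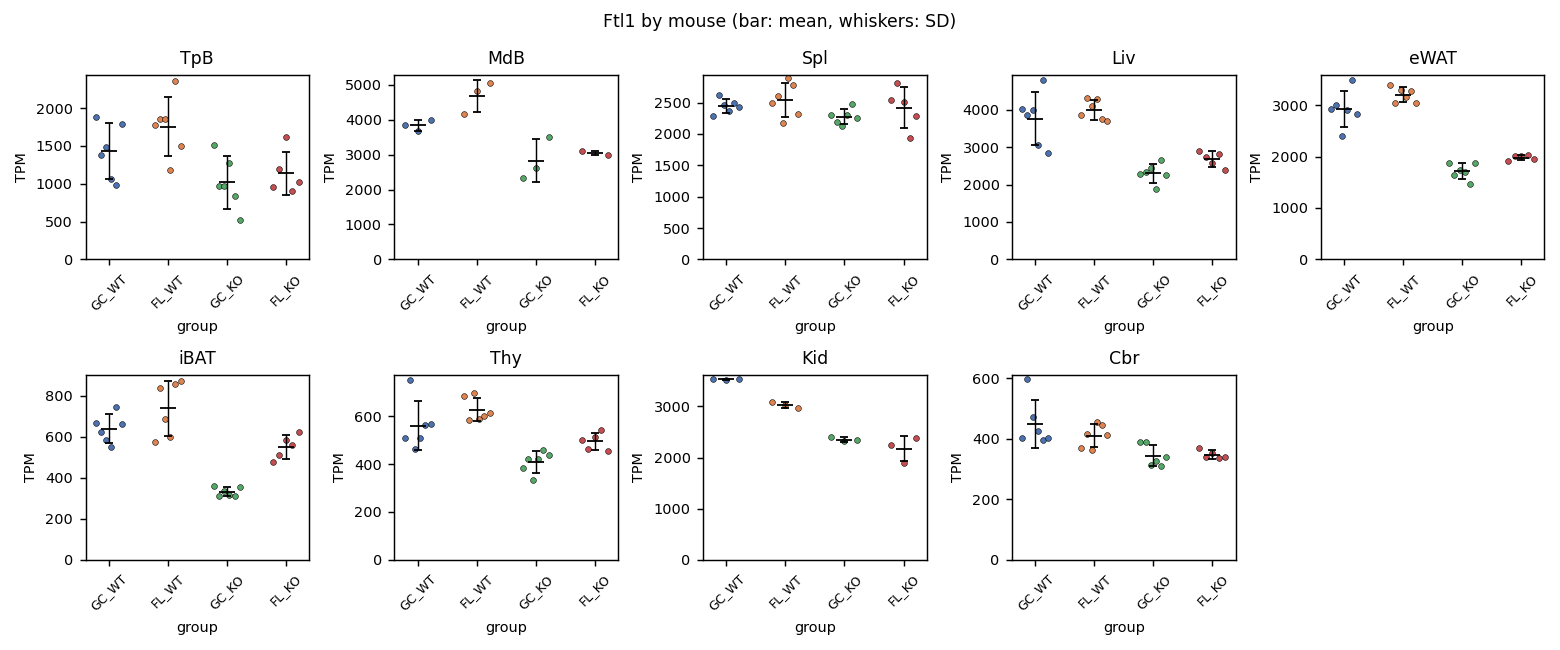
Ftl1 level in TPM in every mouse, 1 panel a tissue, with points for mice and lines for the mean ± SD of each of the 4 groups. In Kid, eWAT and MdB all Nrf2KO mice lie below all WT mice, whereas in Spl and TpB the groups overlap.

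Ftl1 mRNA was lower against its partner chain as well. The mean ratio of Ftl1 to Fth1 TPM in GC_WT, FL_WT, GC_KO and FL_KO mice was 0.31, 0.309, 0.16 and 0.229 in iBAT. In eWAT it was 0.724, 0.691, 0.467 and 0.47, and in Liv it was 1.72, 1.44, 1.24 and 1.17. In Cbr it was 0.115 in GC_WT and 0.089, 0.0892 and 0.0892 in the other groups, in the same order. The GC_WT values in Cbr ran from 0.0815 to 0.209 and overlapped those of each other group. In Spl the ratio stayed between 0.989 and 1.09. This ratio is taken within each library, so it shows unequal levels of the chains and not that either was constant. Reads of the annotated Ftl1 pseudogenes (Ftl1-ps1, Ftl1-ps2 and Ftl2-ps) came to between 0.251% and 3.70% of the Ftl1 reads over all samples, and adding them to the gene changed no Ftl1 call.

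Fth1, the heavy chain, carried a single genotype call, in Liv of flown mice, where it was -0.37 (SE 0.09, adjusted p = 0.0128). On the ground Fth1 in Liv was -0.24 (adjusted p = 0.148), and the flight call was lost when only FL_KO and FL_WT were fitted (adjusted p = 0.0764). In Kid Fth1 was 7761, 7869 and 8366 TPM in GC_WT, 7982, 8279 and 7926 TPM in FL_WT, 6101, 6934 and 6375 TPM in GC_KO and 6558, 6272 and 5757 TPM in FL_KO. The Nrf2KO kidneys were all below the WT kidneys, with log2 fold changes of -0.32 (adjusted p = 0.147) on the ground and -0.39 (adjusted p = 0.0555) in flight that were not called. Over all tissues Fth1 was below 0 in 6 of 9 tissues on the ground and in 8 of 9 in flight.

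Hmox1, the haem-degrading enzyme and a known Nrf2 target, was lower without Nrf2 in Kid and, in flown mice, in eWAT. In Kid it was 62.6, 43.9 and 56.3 TPM in GC_WT, 71.9, 87.6 and 47.7 TPM in FL_WT, 27.2, 25.5 and 22.98 TPM in GC_KO and 31.7, 40.3 and 36.9 TPM in FL_KO. No Nrf2KO kidney reached a WT kidney, and Hmox1 fell by 1.12 on the log2 scale on the ground (SE 0.19, adjusted p = 0.00835) and by 0.94 in flight (SE 0.19, adjusted p = 0.0214). With 3 mice a group these calls depended on single mice: the ground call was lost without GC_KO replicate 12 (adjusted p = 0.056), and the flight call was lost without FL_WT replicate 5 (0.067), FL_WT replicate 8 (0.11) or FL_KO replicate 1 (0.093), and with only its 2 groups in the fit (0.087). In the kidneys 12 macrophage markers summed to 55.3 to 66.6 TPM in GC_WT, 58.8 to 62.3 in FL_WT, 58.8 to 67.8 in GC_KO and 59.5 to 62.7 in FL_KO, ranges that overlapped between all groups, with Cd5l and Marco at 0 in all WT kidneys. The part of these cells in the result was not tested. In Spl, the tissue with the highest Hmox1, the gene was -0.19 (adjusted p = 0.698) on the ground and 0.06 (adjusted p = 0.944) in flight. In TpB, Hmox1 was -0.88 (adjusted p = 0.999) on the ground and -0.26 (adjusted p = 0.976) in flight, and the 2 library sets disagreed in flight (-1.48 against 0.69).

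Slc40a1, the iron exporter, was below 0 in 9 of 9 tissues without Nrf2 on the ground and in 8 of 9 in flight, and was called in eWAT. There it ran from 3.02 to 5.42 TPM in GC_WT (median 3.87), from 3.78 to 12.5 TPM in FL_WT (median 5.79) and from 1.15 to 3.18 TPM in GC_KO (median 2.25), with 2.74, 2.21, 2.76, 2.53 and 3.86 TPM in FL_KO. The genotypes overlapped at the edges of their ranges in both conditions. Slc40a1 in eWAT was -0.96 (SE 0.25, adjusted p = 0.0377) on the ground and -1.28 (SE 0.26, adjusted p = 0.0102) in flight. The ground call was lost with limma on TPM (adjusted p = 0.0938), and the flight call with only its 2 groups in the fit (0.0563). The 12 macrophage markers in eWAT summed to 595 to 778 TPM in GC_WT, 595 to 901 in GC_KO, 682 to 1285 in FL_WT and 663 to 804 in FL_KO, and their part in the result was not tested. In MdB, Slc40a1 was 184, 112 and 48.7 TPM in GC_WT, 18.2, 118 and 19.4 TPM in FL_WT, 40.6, 32.1 and 39.8 TPM in GC_KO and 21.8 and 16.4 TPM in FL_KO. The WT mandibles spread widely, and neither genotype comparison was called (-1.58, adjusted p = 0.917 on the ground). Blvrb, the second biliverdin reductase, was below 0 in 8 of 9 tissues in each genotype comparison and was called in none by edgeR, with 4 tissues at an unadjusted p under 0.05 on the ground and 3 in flight. DESeq2 called none of these either, and limma on TPM called it lower in Liv on the ground (-0.34, adjusted p = 0.0294). Blvra, Trf and Slc11a2 had no genotype call by edgeR, with 0, 1 and 0 tissues at an unadjusted p under 0.05 on the ground and 0, 1 and 1 in flight.

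In Liv, flight was accompanied by higher hepcidin mRNA. Hamp ran from 2194 to 3683 TPM in GC_WT (median 2570.0), from 3416 to 5656 TPM in FL_WT (median 4850.0) and from 685 to 2287 TPM in GC_KO (median 1758), with 2946, 4553, 4420.1, 2918 and 3139.9 TPM in FL_KO. All FL_KO mice were above all GC_KO mice, while FL_WT and GC_WT overlapped. Hamp rose in Nrf2KO mice, 1.98-fold or 0.98 (SE 0.23, adjusted p = 0.0156) on the log2 scale, and was 0.70 (SE 0.22, adjusted p = 0.074) in WT mice. The difference between these responses was 0.28 (SE 0.31, adjusted p = 0.99998). The ground genotypes were -0.76 (SE 0.22, adjusted p = 0.0634), also short of a call. The flight call in Nrf2KO mice was lost with only its 2 groups in the fit (adjusted p = 0.112) and without FL_KO replicate 2 (0.059). Hamp2, a near copy of Hamp, took between 0.174% and 5.38% of their joint reads in Liv and was 0.04 (adjusted p = 0.985) in WT and 0.66 (adjusted p = 0.532) in Nrf2KO mice.

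Hepcidin transcription is driven by BMP6 through SMAD proteins, and other genes that answer to this signal were measured in the same livers. Of the 6 BMP-SMAD target genes listed (Id1, Id2, Id3, Smad6, Smad7, Atoh8), 1 was called higher with flight in WT and 3 in Nrf2KO mice, where 3.45% and 3.34% of all genes in Liv were called in either direction, and the list medians were 0.78 and 0.92, beside 0.00 and 0.01 over all genes. Id2 ran from 99.3 to 161 TPM in GC_WT (median 121), from 169 to 322 TPM in FL_WT (median 260.0) and from 59.3 to 98.6 TPM in GC_KO (median 73.96), with 138, 169.6, 188, 217 and 174 TPM in FL_KO. No flown liver overlapped the ground livers of its genotype, and Id2 rose by 0.98 (SE 0.14, adjusted p = 0.000307) in WT and 1.05 (SE 0.14, adjusted p = 0.000211) in Nrf2KO mice. Id1 ran from 4.23 to 9.37 TPM in GC_WT (median 6.76), from 7.58 to 19.2 TPM in FL_WT (median 15.2) and from 2.41 to 5.32 TPM in GC_KO (median 4.24), with 14.9, 21.9, 9.78, 7.14 and 5.99 TPM in FL_KO. Id1 rose in Nrf2KO mice, 1.47 (SE 0.33, adjusted p = 0.0132), and was 1.05 (SE 0.30, adjusted p = 0.0551) in WT mice. Atoh8, which was picked out after its values were seen, rose in Nrf2KO mice by 1.15 (SE 0.22, adjusted p = 0.00392) and was 0.47 (adjusted p = 0.241) in WT mice. Bmp6 itself, the ligand, was -0.01 (adjusted p = 0.99) and 0.28 (adjusted p = 0.483) with flight. The part of the BMP-SMAD signal in the Hamp values was not tested. On the ground Bmp6 was lower in Nrf2KO livers, -0.65 (SE 0.17, adjusted p = 0.0315), and the BMP-SMAD list had 2 genes called lower there, Id2 (-0.68, adjusted p = 0.00489) and Atoh8 (-1.22, adjusted p = 0.00101), with a median of -0.63. Of the 16 tested genes listed as hepcidin and its regulators, edgeR called Hfe alone with flight, lower in Nrf2KO mice, and the list medians were 0.046 in WT and -0.001 in Nrf2KO mice. Hfe, a membrane protein needed for normal hepcidin levels, was -0.06 (adjusted p = 0.785) in WT and -0.46 (adjusted p = 0.0021) in Nrf2KO mice with flight. It was also lower without Nrf2, -0.71 (adjusted p = 1.23e-06) on the ground and -1.12 (SE 0.08, adjusted p = 3e-09) in flight.

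Transferrin receptor mRNA, which is stabilized when iron is scarce through the elements printed above, moved the other way from Hamp. Tfrc ran from 9.62 to 14.5 TPM in GC_WT (median 12.3), from 3.89 to 8.74 TPM in FL_WT (median 6.51) and from 6.84 to 15.6 TPM in GC_KO (median 10.6), with 4.54, 6.47, 8.30, 5.72 and 5.93 TPM in FL_KO. No FL_WT liver reached the lowest GC_WT liver, while the Nrf2KO groups overlapped. Tfrc fell by 0.94 (SE 0.20, adjusted p = 0.0117) in WT and by 1.09 (SE 0.21, adjusted p = 0.00425) in Nrf2KO mice on the log2 scale. Red cell precursors also carry much Tfrc, and the 11 red cell markers in Liv summed to 571 to 803 TPM in GC_WT, 236 to 401 in FL_WT, 559 to 1199 in GC_KO and 332 to 830.3 in FL_KO, with Epb42 and Rhag at 0 in all FL_KO mice. Their part in the Tfrc change was not tested. In Spl the same markers summed to 6690.0 to 25660.0 TPM in GC_WT, 1282 to 5399 in FL_WT, 8023 to 38380.0 in GC_KO and 2470.0 to 4134 in FL_KO, and Tfrc was -0.47 (adjusted p = 0.0905) in WT and -0.78 (adjusted p = 0.0166) in Nrf2KO mice, the latter called. Erfe, the red cell hormone that lowers hepcidin, did not pass the filter in Liv or Spl.

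Among the other liver members, Fth1 ran from 1944 to 2557 TPM in GC_WT (median 2159), from 2422 to 3155 TPM in FL_WT (median 2856) and from 1811 to 1969 TPM in GC_KO (median 1832), with 2617, 2320.5, 2341, 2147 and 2077 TPM in FL_KO. Fth1 rose with flight in WT mice, 0.29 (SE 0.08, adjusted p = 0.0465), and was 0.16 (adjusted p = 0.385) in Nrf2KO mice. This call lay close to the threshold: it was lost with no filter on low counts (adjusted p = 0.0959) and without FL_KO replicate 9 (0.053). Blvrb ran from 144 to 218 TPM in GC_WT (median 174), from 221 to 259 TPM in FL_WT (median 248) and from 123 to 152 TPM in GC_KO (median 136), with 241, 220.2, 192, 181 and 186 TPM in FL_KO. Flown and ground mice of the same genotype did not overlap, but the adjusted p-values missed the threshold at 0.40 (SE 0.12, adjusted p = 0.0617) in WT and 0.42 (SE 0.12, adjusted p = 0.0667) in Nrf2KO mice. DESeq2 called both (adjusted p = 0.032 and 0.0335). Slc40a1 in Liv was 0.20 (adjusted p = 0.558) and 0.28 (adjusted p = 0.432), Trf was -0.06 (adjusted p = 0.761) and -0.03 (adjusted p = 0.903), and Ftl1 was 0.05 (adjusted p = 0.873) and 0.06 (adjusted p = 0.867), in WT and Nrf2KO mice in that order. Of the plasma proteins that bind iron-related cargo, Cp (ceruloplasmin, a ferroxidase) rose in both genotypes, 0.32 (SE 0.07, adjusted p = 0.0156) and 0.31 (SE 0.07, adjusted p = 0.0224). Hp (haptoglobin, which binds free haemoglobin) rose in WT mice, 0.63 (SE 0.10, adjusted p = 0.00174), and was 0.37 (adjusted p = 0.0609) in Nrf2KO mice, where the ground level was already higher (0.40, SE 0.10, adjusted p = 0.0342, against GC_WT). Hpx (haemopexin, which binds free haem) was -0.27 (adjusted p = 0.266) and -0.34 (adjusted p = 0.195). The 12 macrophage markers in Liv summed to 88.1 to 190.0 TPM in GC_WT, 60.5 to 114 in FL_WT, 105 to 178 in GC_KO and 86.2 to 148 in FL_KO.

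**Figure D4:**
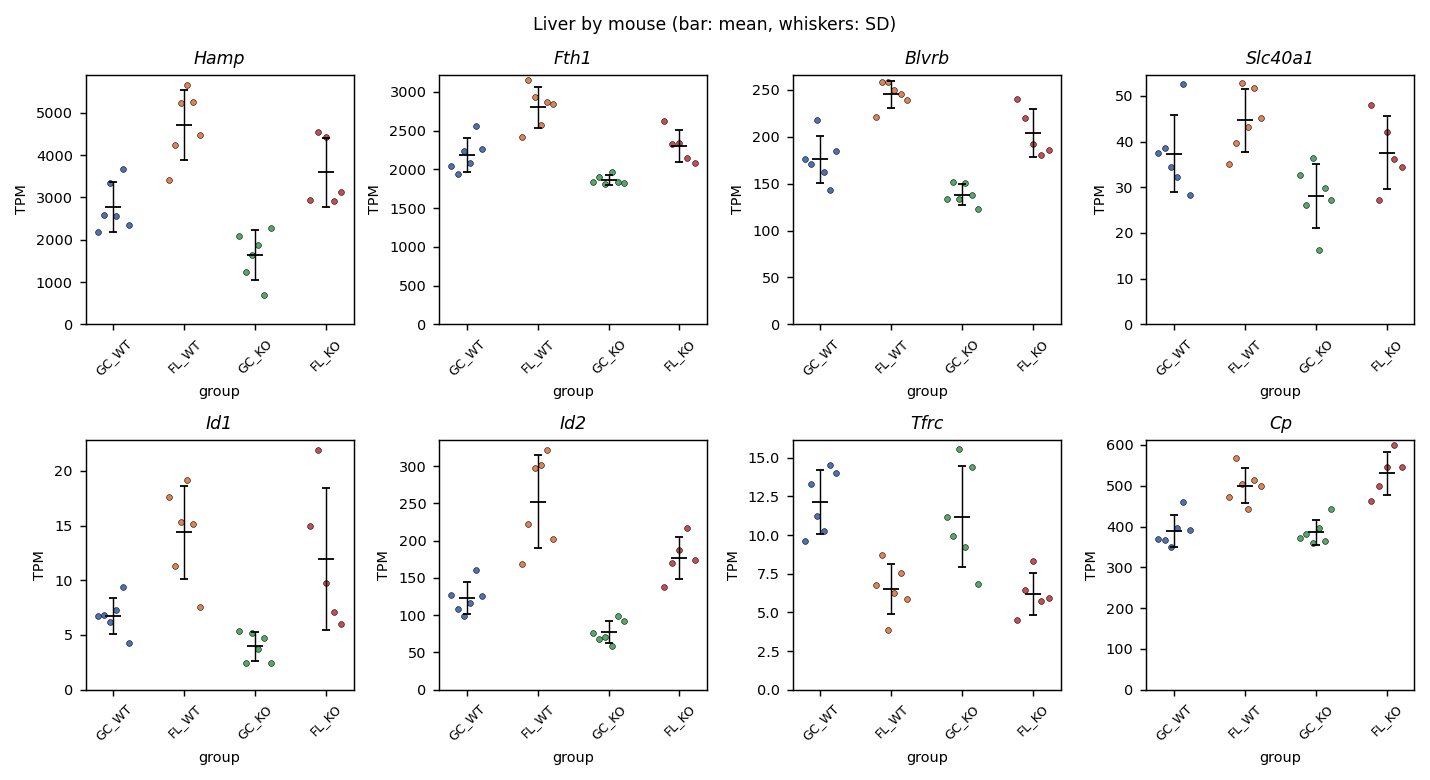
TPM in Liv of the members Hamp, Fth1, Blvrb and Slc40a1 and of Id1, Id2, Tfrc and Cp, 1 panel a gene, with a point for each mouse and the mean ± SD of the 4 groups. Hamp, Id1 and Id2 lie higher and Tfrc lower in the flown groups, with overlap between FL_WT and GC_WT mice for Hamp.

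In Thy, 4 of the 8 members tested rose with flight in WT mice and 3 in Nrf2KO mice, where 22.8% and 38.2% of all genes were called in either direction. Slc40a1 ran from 6.40 to 9.46 TPM in GC_WT (median 8.10), from 10.8 to 15.1 TPM in FL_WT (median 12.96) and from 5.48 to 7.11 TPM in GC_KO (median 6.36), with 10.1, 8.63, 11.5, 13.8 and 10.8 TPM in FL_KO. The conditions did not overlap in either genotype, and Slc40a1 rose by 0.47 (SE 0.11, adjusted p = 0.00255) in WT and 0.52 (SE 0.12, adjusted p = 0.000899) in Nrf2KO mice. Trf ran from 16.9 to 24.4 TPM in GC_WT (median 21.96), from 28.7 to 51.3 TPM in FL_WT (median 40.5) and from 14.5 to 21.2 TPM in GC_KO (median 20.5), with 29.8, 19.9, 37.5, 47.7 and 33.6 TPM in FL_KO. One FL_KO mouse overlapped the ground mice, and Trf rose by 0.70 (SE 0.14, adjusted p = 0.00103) and 0.54 (SE 0.15, adjusted p = 0.00676). Fth1 ran from 245 to 301 TPM in GC_WT (median 274), from 341 to 508 TPM in FL_WT (median 373) and from 241 to 328 TPM in GC_KO (median 266), with 389.9, 351, 347, 397 and 380.4 TPM in FL_KO. It rose by 0.29 (SE 0.06, adjusted p = 0.00126) and 0.20 (SE 0.06, adjusted p = 0.015), without overlap between flown and ground mice of a genotype. Hmox1 ran from 4.10 to 5.65 TPM in GC_WT (median 5.46), from 6.05 to 11.1 TPM in FL_WT (median 7.82) and from 2.85 to 5.44 TPM in GC_KO (median 4.93), with 5.48, 5.6, 6.18, 6.90 and 6.98 TPM in FL_KO. It rose in WT mice, 0.47 (SE 0.13, adjusted p = 0.0138), and was 0.18 (adjusted p = 0.371) in Nrf2KO mice. The sum of 12 macrophage markers was higher in flown mice too. It was 197 to 249.6 TPM in GC_WT and 253 to 510.3 in FL_WT. In Nrf2KO mice it was 147 to 221 TPM in GC_KO and 276 to 359 in FL_KO, with no marker at 0 in all mice of a group. Flown and ground mice did not overlap in this sum either, and its part in the member changes was not tested.

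In iBAT, Slc40a1 showed the largest fold change among the called pairs of a member and a tissue. It ran from 1.67 to 3.0 TPM in GC_WT (median 2.12), from 2.13 to 8.71 TPM in FL_WT (median 4.62) and from 0.68 to 1.76 TPM in GC_KO (median 0.96), with 3.13, 2.51, 7.66, 7.94 and 8.89 TPM in FL_KO. All FL_KO mice were above all GC_KO mice, and Slc40a1 rose 4.07-fold in Nrf2KO mice, 2.03 (SE 0.34, adjusted p = 0.000107) on the log2 scale, against 0.79 (SE 0.32, adjusted p = 0.0823) in WT mice. The difference between the genotypes was 1.24 (SE 0.46, adjusted p = 0.421). Without the muscle-bearing libraries the value in Nrf2KO mice was 1.93 (adjusted p = 0.000329). The macrophage markers in iBAT summed to 19.4 to 34.5 TPM in GC_KO and 40.6 to 78.5 in FL_KO, and to 21.9 to 53.4 in GC_WT and 36.8 to 54.7 in FL_WT, with Cd5l at 0 in all GC_KO mice, and their part was not tested. Ftl1 rose with flight in Nrf2KO mice, 0.32 (SE 0.08, adjusted p = 0.00558), and was -0.12 (SE 0.08, adjusted p = 0.339) in WT mice, which leaves a difference of 0.44 (SE 0.12, adjusted p = 0.18). Without the muscle-bearing libraries the Ftl1 value in Nrf2KO mice was 0.34 (adjusted p = 0.00432). By DESeq2 the difference between genotypes was called (0.44, adjusted p = 0.0167). Fth1 ran from 1755 to 2372 TPM in GC_WT (median 2025), from 2114 to 2792 TPM in FL_WT (median 2365) and from 1891 to 2179 TPM in GC_KO (median 2088), with 2567, 2270.3, 2429, 2213 and 2604 TPM in FL_KO. Its direction depended on the scale: against the median gene Fth1 fell in Nrf2KO mice, -0.21 (SE 0.08, adjusted p = 0.0421), whereas on log2(TPM + 1) it was 0.22 higher with limma, and the call held in 6 of 17 alternatives. Without the muscle-bearing libraries Fth1 was -0.15 (adjusted p = 0.093). Hmox1 ran from 4.07 to 13.6 TPM in GC_WT (median 5.62), from 7.07 to 50.6 TPM in FL_WT (median 14.5) and from 2.97 to 8.58 TPM in GC_KO (median 4.35), with 15.1, 20.9, 6.48, 7.57 and 8.50 TPM in FL_KO. The flown mice spread widely, and Hmox1 was 1.25 (SE 0.46, adjusted p = 0.0588) in WT and 0.79 (SE 0.49, adjusted p = 0.22) in Nrf2KO mice by edgeR, with an adjusted p of 0.0482 in WT mice by DESeq2.

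**Figure D5:**
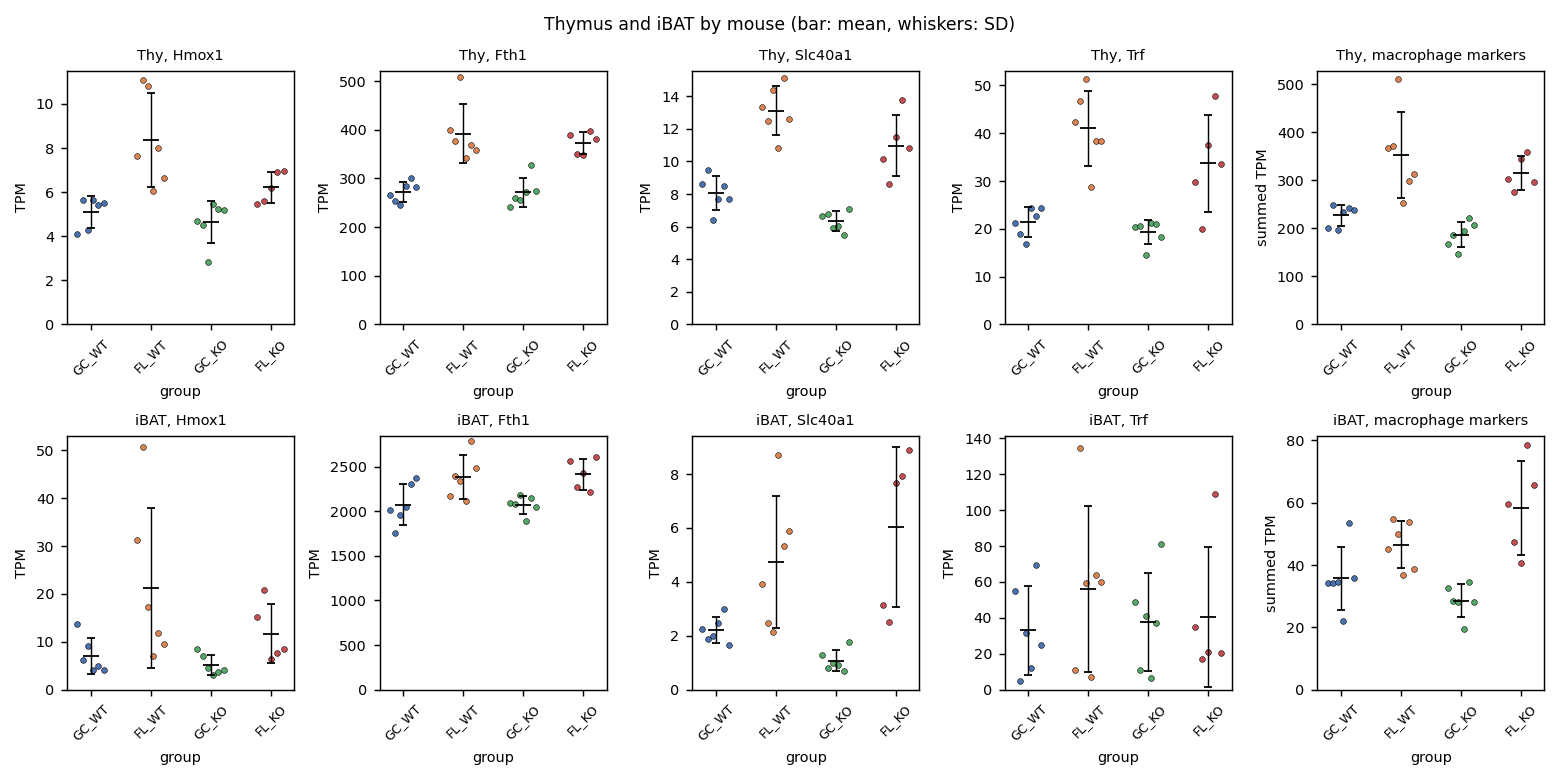
TPM of Hmox1, Fth1, Slc40a1 and Trf and the summed TPM of 12 macrophage markers in Thy (upper line of panels) and iBAT (lower line), with a point for each mouse and the mean ± SD of the 4 groups. In Thy the flown groups lie higher in Fth1, Slc40a1 and the macrophage sum, and in iBAT Fth1 lies higher in TPM with flight although its log2 fold change was -0.21 against the median gene in Nrf2KO mice.

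In eWAT, 2 of the 9 members tested were called higher and 1 lower with flight in WT mice. No member was called there in Nrf2KO mice. Of all genes tested in eWAT, 13.4% in WT and 7.71% in Nrf2KO mice were called in either direction. Hmox1 ran from 32.9 to 42.6 TPM in GC_WT (median 36.4), from 42.9 to 106 TPM in FL_WT (median 51.2) and from 29.3 to 55.4 TPM in GC_KO (median 32.7), with 33.1, 48.3, 31.3, 31.02 and 30.96 TPM in FL_KO. Every FL_WT mouse was above every GC_WT mouse, with the highest far above the rest, and Hmox1 rose by 0.59 (SE 0.17, adjusted p = 0.0215) in WT mice and was -0.06 (adjusted p = 0.895) in Nrf2KO mice. The difference between these responses was -0.65 (SE 0.25, adjusted p = 0.485). In flown mice the genotypes differed, -0.80 (SE 0.18, adjusted p = 0.0249), a call that was lost in 8 of 13 alternatives, among them leaving out any of FL_KO replicates 1, 9, 11 and 12 (adjusted p between 0.065 and 0.089). Mouse FL04 had 132 TPM of Hmox1 in eWAT, and with it included the WT flight call was lost too (adjusted p = 0.181). Blvra, which reduces biliverdin, ran from 25.3 to 45.9 TPM in GC_WT (median 28.3), from 33.9 to 58.95 TPM in FL_WT (median 49.8) and from 28.3 to 44.1 TPM in GC_KO (median 33.8), with 44.3, 45.5, 29.4, 48.03 and 44.2 TPM in FL_KO. The groups overlapped, and Blvra rose by 0.53 (SE 0.14, adjusted p = 0.0149) in WT mice and was 0.27 (adjusted p = 0.277) in Nrf2KO mice. Trf ran from 2592 to 3679.5 TPM in GC_WT (median 2935), from 2075 to 2618 TPM in FL_WT (median 2159) and from 2205 to 2909.5 TPM in GC_KO (median 2724), with 2050.0, 2746, 2901, 2489 and 2529 TPM in FL_KO. Trf fell in WT mice by 0.53 on the log2 scale (SE 0.11, adjusted p = 0.00273) and was -0.07 (adjusted p = 0.768) in Nrf2KO mice. Trf is also a liver transcript. The sums of the 5 hepatocyte markers other than Cyp2e1 in eWAT, given above, overlapped between flown and ground mice of each genotype. Their medians were 66.3 TPM in GC_WT, 26.56 in FL_WT, 139.35 in GC_KO and 26.65 in FL_KO. The part of these transcripts in the Trf change was not tested. The macrophage sum in eWAT was 595 to 778 TPM in GC_WT and 682 to 1285 in FL_WT.

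In Kid, Spl, Cbr and the bones no member was called with flight by edgeR. The share of all genes called there was at most 0.159% in Kid and 0.0244% in Cbr, and 0 in TpB and MdB, so few genes of any kind passed in them, except in Spl. In Kid, Trf was 4.01, 4.73 and 2.78 TPM in GC_WT, 5.0, 8.72 and 7.50 TPM in FL_WT, 3.32, 3.81 and 3.21 TPM in GC_KO and 5.96, 4.89 and 9.63 TPM in FL_KO. The flown kidneys were all higher than the ground kidneys of their genotype, with 0.81 (adjusted p = 0.389) in WT and 0.89 (adjusted p = 0.179) in Nrf2KO mice, neither called. Cp, picked out after its values were seen, rose there in both genotypes, 0.74 (adjusted p = 0.00259) and 0.93 (adjusted p = 0.000837). Elsewhere with flight, Cp was called higher in Thy, 0.40 (adjusted p = 0.0486) in WT and 0.97 (adjusted p = 3.6e-05) in Nrf2KO mice. It was called lower in eWAT of WT mice, -0.64 (adjusted p = 0.00102). In Spl, Hmox1 was -0.01 (adjusted p = 0.983) and 0.24 (adjusted p = 0.534), and Slc40a1 was 0.16 (adjusted p = 0.601) and 0.23 (adjusted p = 0.498), while the red cell sums were lower, as given above. In TpB, Hmox1 was 0.65 (adjusted p = 0.99988) in WT and 1.26 (adjusted p = 0.999) in Nrf2KO mice, where 1 mouse, FL_KO replicate 9, had 159 TPM. The Nrf2KO value was 0.42 in the first library set and 1.66 in the second. Slc11a2, the ferrous iron transporter, was called by edgeR in no tissue and no comparison, with 1, 1, 0 and 1 tissues at an unadjusted p under 0.05 (flight in WT and Nrf2KO mice, genotype on the ground and in flight). Its log2 fold changes lay between -0.56 and 0.12. DESeq2 made no call for it, and limma on TPM called it higher with flight in Thy in both genotypes (0.29 and 0.26).

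Whether the flight response differed between the genotypes was tested directly. The interaction of flight and genotype was called by edgeR for 0 of the 75 pairs and for 0% of the genes tested in each of the 9 tissues. At an unadjusted p under 0.05 there were 4 pairs: Hmox1 and Trf in eWAT and Ftl1 and Slc40a1 in iBAT. Trf in eWAT was 0.46 (SE 0.16, adjusted p = 0.445), and the other 3 are given above. Of all genes, 1291 of 15317 in eWAT and 1127 of 13574 in iBAT were under the same unadjusted p. Elsewhere these numbers were 321 of 18184 in TpB, 827 of 16361 in MdB and 643 of 16170 in Spl. They were 542 of 13433 in Liv, 1342 of 16307 in Thy, 511 of 15114 in Kid and 383 of 16382 in Cbr. DESeq2 called 1 pair, Ftl1 in iBAT, and limma on TPM called 0. A call in 1 genotype alone is therefore not shown to be particular to it.

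Beyond the members, 64 genes of iron and haem handling were listed by role, of which 53 to 61 passed the filter in a tissue. Over the 511 pairs of a listed gene and a tissue, 29 were called higher and 19 lower with flight in WT mice, and 42 higher and 23 lower in Nrf2KO mice. These are 9.39% and 12.7% of the listed pairs, beside 6.55% and 8.91% of the 140842 pairs of any gene and a tissue. The tissue with the most calls was Thy, with 15 higher and 4 lower in WT and 18 higher and 6 lower in Nrf2KO mice, where the list medians were 0.10 and 0.09 beside 0.02 and -0.01 over all genes. The listed genes tested were 53 in Thy, 59 in eWAT, 55 in iBAT and 59 in Liv, to be read against the shares of all genes called there, as printed above. In eWAT the counts were 6 higher and 9 lower in WT and 7 higher and 2 lower in Nrf2KO mice, in iBAT 2 and 5, and 11 and 12, and in Liv 4 and 1, and 5 and 2. In Thy the pairs with the smallest adjusted p included receptors of the BMP pathway and the haemopexin receptor Lrp1. Lrp1 rose by 0.64 (adjusted p = 6.86e-05) and 0.78 (adjusted p = 4.39e-06) in WT and Nrf2KO mice. The receptor genes Bmpr2 (0.49 and 0.53, adjusted p = 4.05e-05 and 8.32e-06) and, each named in the genotype where its adjusted p was among the 4 smallest, Bmpr1a (0.49, adjusted p = 0.000677, in WT mice) and Acvr2a (0.77, adjusted p = 1.39e-05, in Nrf2KO mice) rose as well, as did Smad7, an inhibitor of this signal (0.99, adjusted p = 1.57e-06, in Nrf2KO mice). The other genotype was called higher too for Bmpr1a (0.65, adjusted p = 2.92e-05, in Nrf2KO mice). So it was for Acvr2a (0.48, adjusted p = 0.00175) and Smad7 (0.39, adjusted p = 0.0131), both in WT mice. Lower in Thy with flight were Bach1, the haem-binding repressor of Hmox1 (-0.29 and -0.38, adjusted p = 3.4e-05 and 1.12e-06), and Hmox2, the constitutive haem oxygenase (-0.30 and -0.36, adjusted p = 0.000323 and 3.7e-05).

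In iBAT, Hephl1, a ferroxidase of the ceruloplasmin family, fell with flight by 3.84 in WT (adjusted p = 8.28e-08) and by 5.29 in Nrf2KO mice (adjusted p = 4.97e-10) on the log2 scale, and was higher in GC_KO than in GC_WT mice, 1.69 (adjusted p = 0.000203). Hephl1 had 63 to 162 counts in GC_WT, 3 to 10 in FL_WT, 204 to 471 in GC_KO and 4 to 17 in FL_KO mice, so its level in flown mice rests on few reads. Iscu, the scaffold of iron-sulphur cluster assembly, fell in iBAT, -0.27 (adjusted p = 0.00644) in WT and -0.45 (adjusted p = 5.35e-05) in Nrf2KO mice. In eWAT the ferrireductase Steap3 fell, -0.83 (adjusted p = 2.67e-05) in WT and -0.68 (adjusted p = 0.000656) in Nrf2KO mice. Between genotypes, 7 listed pairs were called higher and 20 lower on the ground, and 2 higher and 20 lower in flight, of which 9 of the lower pairs in each are Nfe2l2 itself. Over all genes and tissues, 1177 pairs were higher and 1147 lower on the ground, 1.65% of those tested, and 704 and 1204 in flight, 1.35%. Hfe, given above for Liv, was also called lower in other tissues, picked out after their values were seen. On the ground it was -0.80 (adjusted p = 0.00222) in eWAT and -1.18 (adjusted p = 5.39e-05) in Kid. In flight Hfe was -0.71 (adjusted p = 0.0182) in eWAT and -0.75 (adjusted p = 0.00379) in iBAT. In flown kidneys it was -1.10 (adjusted p = 8.6e-05). Cybrd1, a ferrireductase, was higher without Nrf2 in Cbr on the ground (1.16, adjusted p = 0.000232) and in flight (0.88, adjusted p = 0.0168). Lcn2, which binds iron carriers of bacteria, was higher in Liv on the ground (2.07, adjusted p = 0.00558), Pcbp1, an iron chaperone, in Thy (0.21, adjusted p = 0.00531), and Hmox2 in Liv of flown mice (0.36, adjusted p = 0.0183).

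The genes with the most similar pattern were found for each member by Pearson's r of log2(TPM + 1) over all 184 samples, among 17191 genes. The samples fall into 9 tissues, several come from the same mouse, and r therefore mostly describes tissue patterns. They were Arhgap17 (r = 0.931) and Crtc2 (r = 0.922) for Hmox1, Gpr137b (r = 0.910) and Eps8 (r = 0.900) for Blvra and Serping1 (r = 0.914) and Atoh8 (r = 0.905) for Blvrb. The ferritin chains were closest to Cops6 (r = 0.945) and Higd2a (r = 0.941) for Fth1 and Gm22133 (r = 0.971) and Palld (r = 0.919) for Ftl1, of which Gm22133 lies within Ftl1 on the same strand and can share its reads. For the remaining members they were Otulin (r = 0.902) and Gm45838 (r = 0.886) for Slc40a1, Kng1 (r = 0.986) and Ces1c (r = 0.985) for Hamp, Apoe (r = 0.943) and Lhpp (r = 0.934) for Trf and Tmem64 (r = 0.916) for Slc11a2.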

How the data were processed

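RNA-seq of 9 tissues was used as deposited. The study's authors sequenced single reads, mapped them with STAR 2.6.1 and quantified genes with RSEM 1.3.1 (mm10, GENCODE vM20). The authors deposited expected counts, which split reads that map to several genes and are not normalized (6.01% are not whole), and TPM, which is scaled within each sample. The 192 FPKM columns were not used. Expected counts were rounded and tested with edgeR 4.0.16 (R 4.3.3; TMM, filterByExpr, quasi-likelihood test), 1 fit per tissue with all 4 groups, Benjamini-Hochberg adjustment over all genes tested and a threshold of 0.05. The SE is the log2 fold change divided by the square root of F. The alternatives tried were RLE factors, no filter, FL04 included, other sample sets, blocks, a muscle covariate, limma 3.58.1 (log2 of TPM plus 1 or 0.1, mean TPM 5 or higher), DESeq2 1.42.0, ferritin copies merged and single mice left out (154 fits, 58 of them without 1 mouse). The script was tested on simulated data. Groups came from the labels. Replicates are separate mice.

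The members, gene lists and marker lists were chosen with earlier results of these data known. Named genes were all members in all tissues, the 4 listed gene and tissue pairs with the smallest adjusted p per direction and comparison, Tfrc, Erfe, Bmp6, Id1, Hamp2, Hp, Hpx and Cp in Liv and Spl, Nfe2l2, and the 2 genes most like each member, of which 1 is not reported here. Among the sets with 3 or more pairs, every same-numbered pair had an r above 0.1 only in Liv of Nrf2KO mice (0.22 to 0.37 over 5 pairs). There 1 of 5 ground mice was closest to its own number. In TpB of Nrf2KO mice it was 3 of 5, with r from -0.48 to 0.75. In MdB of Nrf2KO mice the r of the 2 pairs was 0.104 and 0.193, too few pairs to decide. Depth limits low levels such as Hamp outside Liv.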

Additional observations from a re-analysis of the deposited data

Results flagged for a closer look

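In 22 of 232 sets of a member, tissue and group with 4 to 6 mice, 1 mouse lay far from the others by Dixon's criterion, which chance alone would meet in about 1 in 20 sets. For each, the TPM of that mouse stands beside the range of the other mice of its group.

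Spleen GC_WT replicate 8 stood apart in 4 members: Hmox1 (761 TPM against 447 to 533), Slc40a1 (272 TPM against 180.0 to 203), Blvra (44.2 TPM against 34.4 to 37.6) and Trf (221 TPM against 183 to 198). In Spl, Blvra was also high in GC_KO replicate 11 (44.8 TPM against 34.2 to 37.8). Hmox1 was high in TpB of FL_KO replicate 9 (159 TPM against 20.6 to 45.5), in eWAT of GC_KO replicate 1 (55.4 TPM against 29.3 to 38.3) and FL_KO replicate 2 (48.3 TPM against 30.96 to 33.1) and in Cbr of GC_KO replicate 2 (10.1 TPM against 5.50 to 7.22). It was low in Thy of GC_KO replicate 4 (2.85 TPM against 4.50 to 5.44). Blvra was low in eWAT of FL_KO replicate 9 (29.4 TPM against 44.2 to 48.03), in iBAT of FL_WT replicate 10 (8.46 TPM against 13.3 to 15.9) and in Cbr of FL_KO replicate 2 (20.2 TPM against 23.7 to 24.5).

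The ferritin chains stood apart in Thy, Fth1 in FL_WT replicate 6 (508 TPM against 341 to 399) and Ftl1 in GC_WT replicate 5 (752 TPM against 464 to 568). Slc40a1 was low in TpB of GC_KO replicate 1 (4.85 TPM against 8.49 to 10.2). Hamp in eWAT was high in FL_WT replicate 5 (59.8 TPM against 0 to 2.14) and FL_KO replicate 1 (7.55 TPM against 0 to 1.75). Trf was high in TpB of FL_WT replicate 8 (717 TPM against 345 to 481) and in iBAT of FL_KO replicate 11 (109 TPM against 17.1 to 35.1), the library with the most skeletal muscle transcript. Slc11a2 in eWAT was high in FL_WT replicate 7 (15.4 TPM against 11.3 to 12.7) and low in FL_KO replicate 1 (9.76 TPM against 13.2 to 14.4).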

How the results depend on the processing

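The number of member and tissue pairs called for FL_WT against GC_WT was 8, and 13 with DESeq2, 17 with limma on log2(TPM + 1) and 16 on log2(TPM + 0.1). For FL_KO against GC_KO it was 7, and 15 with limma under either pseudocount. GC_KO against GC_WT went from 7 to 12 with DESeq2, FL_KO against FL_WT from 8 to 3 with only its 2 groups in the fit, and the interaction from 0 to 1 with DESeq2. Without 1 mouse the counts lay between 7 and 10, 6 and 9, 6 and 7, 7 and 9, and 0 and 0, in that order. With the mouse number as a replicate block they were 10 and 8 for the flight comparisons and 0 for the interaction. In Liv of Nrf2KO mice, where every pair's r was above 0.1, the block changed no member's call. There 1 of 5 ground mice was closest to its own number, so a pairing by number was not shown. Elsewhere 3 calls were lost under the block, Fth1 in iBAT of Nrf2KO mice (adjusted p = 0.122), Fth1 in Liv of WT mice (adjusted p = 0.0511) and Trf in Thy of Nrf2KO mice (0.053), and in no set with 3 or more pairs was every ground mouse closest to its own number. MdB, which ranked first in Ftl1 by TPM, ranked 3 in CPM and 2 without mitochondrial and ribosomal protein genes, where Kid came first, and the other 8 members kept their first tissue in both. The direction turned with limma on log2(TPM + 1) and log2(TPM + 0.1) for Fth1 in iBAT (0.20 in WT, 0.22 in Nrf2KO mice, under both) and for Blvrb in iBAT of Nrf2KO mice (0.26 and 0.27), where TPM carries the shift of all genes. Of the 30 called pairs, 16 kept their call in every alternative run, and 417 of 456 alternatives kept it. Chosen after seeing the data were 2 alternatives, merged ferritin copies and iBAT without its muscle-bearing libraries, and calls lost under them are given beside the results. What changed the other calls was not tested.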

Other observations

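Flown Nrf2KO mouse 04, which bled into the intestine and stands in no comparison above, lay above the other FL_KO mice in 14, below them in 17 and among them in 36 of 67 pairs of a member and a tissue. Hmox1, the haem-degrading enzyme, was higher in both fat tissues, with 132 TPM against 30.96 to 48.3 in eWAT and 39.9 TPM against 6.48 to 20.9 in iBAT. In Liv of this mouse Hamp was 5103 TPM against 2918 to 4553 and Ftl1 was 2169 TPM against 2381 to 2899.8. This is 1 mouse, and its values have no replicate.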
